A study of Bos taurus with 8 samples.

Results

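The genes described here are *CLCA2*, *MSMP*, *FGL2*, *THSD4*, *CPZ*, *CYTL1*, *KIAA1211*, *GLT8D2*, *VIT* and *GSDMC*, 10 of the 24596 genes counted in bovine articular chondrocytes. They were chosen by their measured counts, as genes well counted in superficial zone chondrocytes (SZCs) and at least 7-fold lower in deep zone chondrocytes (DZCs), so their zone difference is given as a description with no test. Both zones came from knee cartilage of wild type calves aged 1 to 2 weeks. The SZC libraries hold the thin slice below the joint surface, the DZC libraries a slice above the bone, and the middle of each core was discarded. The cells of both zones were cultured for 3 days in medium with serum before RNA-Seq, so the counts describe cultured chondrocytes rather than fresh tissue. There were 2 libraries per zone, which the study describes as biological duplicates. Whether the duplicates are separate animals is not given in the sources used here.

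Articular cartilage is layered. Chondrocytes at the surface are flattened, secrete lubricin and face the joint fluid, whereas those of the deep zone are rounder, lie in columns and make a matrix rich in type II collagen and aggrecan. Most of the 10 genes encode proteins that leave the cell. *VIT* (vitrin) and *THSD4* encode matrix proteins, *MSMP* and *CYTL1* encode small secreted proteins, and *FGL2* encodes a fibrinogen-like protein. *CPZ* encodes a secreted carboxypeptidase and *GLT8D2* a glycosyltransferase-like protein. *CLCA2* encodes a regulator of calcium-activated chloride currents, *GSDMC* a gasdermin, the family whose cleaved fragments form membrane pores, and *KIAA1211* (also called *CRACD*) an inhibitor of actin capping protein.

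Library totals lay between 19918970 and 21890549 counts, and levels below are CPM, the counts scaled to a common library size after correction by the trimmed mean of *M* values (TMM). At these depths the limit that a count of 0 allows, 3 counts, corresponds to between 0.129 and 0.187 CPM. Each DZC library stood apart in its own way. In DZC replicate 1 *COL2A1* alone took 24.5% of the counts, against 12.9% in DZC replicate 2 and at most 7.18% in the SZC libraries. The TMM factor of that library was 0.735, against 1.08 to 1.14 in the other 3. DZC replicate 2 alone held many counts of hypertrophic and bone markers, with 468 of *MMP13*, 268 of *IBSP*, 140 of *SP7*, 445 of *ALPL* and 221 of *COL10A1*, where no other library had more than 23 of any of these 5. The 8 markers of that list summed to 270 CPM in DZC replicate 2, 19.1 CPM in DZC replicate 1 and 110 and 104 CPM in SZCs, where *SPP1* made up most of the sum, and 0 of the 3 tested passed edgeR's exact test, with 1 at an unadjusted p below 0.05 and 0 called by DESeq2. Chondrocyte markers were abundant in all libraries, where each of the 12 listed had at least 1067 counts. Their log2 fold changes of SZCs over DZCs were all below 0, with a median of -1.24. *SOX9* (-0.05), *HAPLN1* (-0.06) and *ACAN* (-0.58) each lay within 1 standard error of 0. Of the 12, edgeR's exact test called 2 lower in SZCs, *CNMD* (log2 fold change -2.94, FDR 0.000917) and *MATN3*, against 0.700% of all tested genes. At an unadjusted p below 0.05 there were 7. DESeq2 called 4, against 3.09% of all genes in either direction. The quasi-likelihood test of edgeR called 0, and with same-numbered libraries as a replicate block it called 1, *MATN3*. The part of the chondrocyte markers in the levels of the 10 genes was not tested. The superficial zone marker *PRG4*, which encodes lubricin, was at 3164 and 2023 CPM in SZCs and at 15.3 and 61.5 CPM in DZCs.

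All 10 genes passed the filter on low counts, and in all 10 both SZC libraries lay above both DZC libraries. Such a separation was seen in 21.0% of the 12857 genes tested, and a fold change of at least 7 toward SZCs in 1.46%. Both shares belong to the contrast that chose the genes, and nothing is read from the 10 genes against them. Of the tested genes, 20.5% separated in the opposite direction. In bulk RNA, fewer cells that express a gene and less RNA of it per cell cannot be told apart. Gene lengths of the build used for counting were not used here, so levels are compared between libraries of a gene and not between genes.

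**Figure D1:**
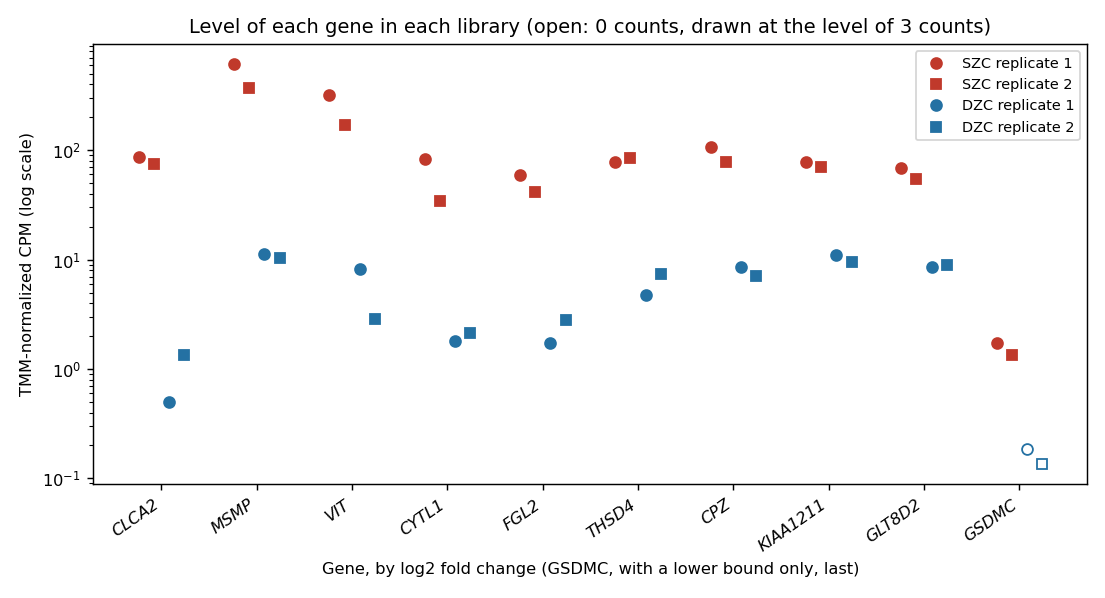
Level of each of the 10 genes (TMM-normalized CPM, log scale) in the 4 libraries, with SZCs in red and DZCs in blue, circles for replicate 1 and squares for replicate 2. In every gene both red points lie above both blue ones, and the open points of *GSDMC* mark 0 counts in both DZC libraries, drawn at the level of 3 counts.

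The matrix proteins were *VIT* and *THSD4*. Vitrin carries von Willebrand A and LCCL domains and is deposited outside the cell. *VIT* (ENSBTAG00000024980) had 7052 and 3969 counts in SZC replicates 1 and 2, against 133 and 64 in those of the DZCs. Its level was 246 ± 106 CPM among SZCs (SD, n = 2) and 5.57 ± 3.82 CPM among DZCs (SD, n = 2). Both zones were uneven, with replicate 1 the higher library in each. SZCs exceeded DZCs by 5.47 on the log2 scale (standard error, SE, 0.61), which is 44.2-fold. This measure, called log2FC below, became 6.42 without DZC replicate 1, 4.91 without DZC replicate 2 and 4.94 without SZC replicate 1.

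*THSD4* (ENSBTAG00000011644) encodes an ADAMTS-like protein without protease activity that binds fibrillin-1 and promotes the assembly of microfibrils. It had 1723 and 1953 counts in SZC replicates 1 and 2, against 77 and 164 in those of the DZCs. The SZC values were close to each other, at 78.2 and 84.1 CPM, while DZC replicate 2 was above DZC replicate 1, at 7.35 against 4.79 CPM. This put SZCs above DZCs by 3.73 on the log2 scale (SE 0.38), which is 13.3-fold. The value ranged from 3.47 to 4.10 when single libraries were dropped.

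Of the small secreted proteins, *MSMP* (ENSBTAG00000038777), which encodes a cysteine-rich ligand of the chemokine receptor CCR2, had 13509 and 8591 counts in SZC replicates 1 and 2, against 181 and 231 in those of the DZCs. The level was 492 ± 172 CPM among SZCs (SD, n = 2) and 10.8 ± 0.640 CPM among DZCs (SD, n = 2). The DZC libraries were nearly equal, whereas the SZC libraries differed. On average SZCs were higher by 5.51 on the log2 scale (SE 0.42), which is 45.5-fold. The receptor gene *CCR2* had 0 counts in every library.

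*CYTL1* (ENSBTAG00000011163), for a secreted protein known from cartilage and from blood progenitor cells, had 1838 and 796 counts in SZC replicates 1 and 2, against 29 and 48 in those of the DZCs. At 83.5 and 34.3 CPM it had the widest ratio between SZC libraries of the 10 genes. In DZCs it was at 1.80 and 2.15 CPM, a gap within counting error. The zone difference came to 4.89 on the log2 scale (SE 0.54), which is 29.6-fold, and fell to 4.11 without SZC replicate 1.

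*FGL2* (ENSBTAG00000009717) encodes a protein that cleaves prothrombin in its membrane form and dampens immune cells in its soluble form. It had 1300 and 964 counts in SZC replicates 1 and 2, against 28 and 63 in those of the DZCs. Its level was 50.3 ± 12.4 CPM among SZCs (SD, n = 2) and 2.28 ± 0.765 CPM among DZCs (SD, n = 2). The mean SZC level was higher by 4.45 on the log2 scale (SE 0.44), which is 21.8-fold. Its receptor gene *FCGR2B* had 6 and 5 counts in SZCs and 0 and 9 in DZCs.

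*CPZ* (ENSBTAG00000014803) encodes a zinc carboxypeptidase that carries a frizzled-like domain able to bind Wnt proteins. It had 2336 and 1814 counts in SZC replicates 1 and 2, against 139 and 158 in those of the DZCs. The level was 92.1 ± 19.8 CPM among SZCs (SD, n = 2) and 7.86 ± 1.11 CPM among DZCs (SD, n = 2). Between the zones it differed by 3.55 on the log2 scale (SE 0.37), which is 11.7-fold. *GLT8D2* (ENSBTAG00000000925) had 1508 and 1265 counts in SZC replicates 1 and 2, against 137 and 198 in those of the DZCs. Its DZC libraries were almost equal, at 8.52 and 8.87 CPM, against 68.5 and 54.5 CPM in SZCs. The difference between zones was 2.82 on the log2 scale (SE 0.36), which is 7.06-fold and the smallest of the 9 genes with counts in every library. With single libraries left out it fell below the 7-fold limit without SZC replicate 1 (log2FC 2.64) and without DZC replicate 1 (2.80). Without DZC replicate 2 it was 2.87, and *KIAA1211* was then the smaller (2.76).

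Of the genes for proteins of the cell itself, *CLCA2* (ENSBTAG00000038215) had the largest fold change of the 9 genes with counts in every library. It had 1897 and 1738 counts in SZC replicates 1 and 2, against 8 and 30 in those of the DZCs. The level was 80.5 ± 7.99 CPM among SZCs (SD, n = 2) and 0.921 ± 0.599 CPM among DZCs (SD, n = 2). The SZC libraries were close to each other, and in DZC replicate 1 the gene was at 0.497 CPM with an exact Poisson 95% interval from 0.215 to 0.980 CPM. SZCs held more of it by 6.40 on the log2 scale (SE 0.49), which is 84.4-fold. The value became 7.34 without DZC replicate 2 and 5.90 without DZC replicate 1, where that of *VIT* was larger (6.42). Poisson intervals here cover the sampling of reads alone. Reads copied by PCR do not count molecules, so these intervals can be too narrow.

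*KIAA1211* (ENSBTAG00000040398), whose protein lets actin filaments grow by keeping capping protein off their ends, had 1724 and 1639 counts in SZC replicates 1 and 2, against 178 and 210 in those of the DZCs. The level was 74.4 ± 5.45 CPM among SZCs (SD, n = 2) and 10.2 ± 1.17 CPM among DZCs (SD, n = 2). Neither zone varied much between its libraries. The zones lay apart by 2.86 on the log2 scale (SE 0.34), which is 7.27-fold. This gene too fell below the 7-fold limit with a library left out, without SZC replicate 1 (log2FC 2.78) and without DZC replicate 2 (2.76).

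*GSDMC* (ENSBTAG00000017478) differed from the other 9 genes in depth. It was counted 38 and 31 times in SZCs and 0 times in both DZC libraries, so the description of the 10 as well counted does not hold for it, while the other 9 had at least 796 counts in each SZC library. Its SZC level was 1.53 ± 0.276 CPM (SD, n = 2). With DZCs set to the mean level of 3 counts per library, 0.160 CPM, *GSDMC* was at least 9.54-fold higher in SZCs. A fitted fold change against libraries without counts is no measurement and is not given.

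With *GSDMC* at its bound, the median log2FC of the 10 genes was 4.09, against -0.04 over all tested genes, a difference that the choice of the genes fixes. The limit of 7-fold cut through a continuous range. Among genes with at least 31 counts in each SZC library, *TSHZ2* (7.02-fold), *GLT8D2* and *RETREG1* (7.09-fold) lay just above it, and *MEST* (6.96-fold), *IGFBP2* (6.93-fold) and *CDH15* (6.92-fold) just below. In all, 136 genes met the limit at that count, and 31 genes did so with at least 796 counts in each SZC library. The 10 are therefore a selection from a longer list.

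The genes differed in how much of their superficial level was left in the deep zone. *CLCA2* in DZC replicate 1 was at 0.618% of its mean SZC level and in DZC replicate 2 at 1.67%. *MSMP* was at 2.29% and 2.10%, *CYTL1* at 3.06% and 3.65%, and *FGL2* at 3.46% and 5.61%, in the same order. *VIT* was at 3.37% and 1.17%. Higher shares were left of *THSD4* (5.90% and 9.05%), *CPZ* (9.38% and 7.69%), *KIAA1211* (14.9% and 12.6%) and *GLT8D2* (13.9% and 14.4%). Within a single DZC library the share thus differed from gene to gene, from 0.618% to 14.9% in replicate 1 and from 1.17% to 14.4% in replicate 2. *PRG4* was at 0.590% and 2.37%, and *CREB5*, the transcription factor gene on which the study centred, at 3.13% and 4.96%. Without DZC replicate 1 the log2FC was 5.57 for *MSMP*, 4.78 for *CYTL1*, 4.16 for *FGL2* and 3.71 for *CPZ*. Without DZC replicate 2 it was 5.46, 5.04, 4.86 and 3.43 for the same genes. The part of the bone and hypertrophic marker counts in these differences was not tested.

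**Figure D2:**
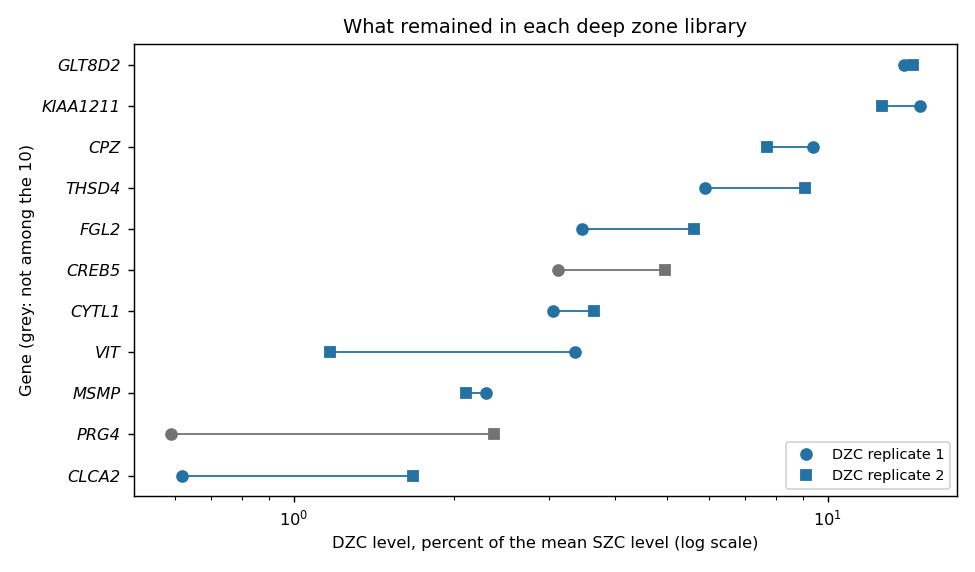
Level of each gene in DZC replicate 1 (circles) and replicate 2 (squares) as a percentage of its mean SZC level (log scale), with *PRG4* and *CREB5* in grey for reference and *GSDMC*, with 0 counts in DZCs, left out. The share left runs from 0.618% for *CLCA2* to 14.9% for *KIAA1211* within replicate 1, with *CLCA2* the higher in replicate 2 and *VIT* the higher in replicate 1.

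The 2 DZC libraries did not differ in the same direction for all genes. The log2 ratio of DZC replicate 2 to replicate 1 was 1.43 for *CLCA2* and -1.53 for *VIT*, outside the interquartile range of all genes, -0.54 to 0.47. *FGL2* (0.70) and *THSD4* (0.62) lay above that range as well, whereas *MSMP* (-0.12), *CPZ* (-0.29) and *KIAA1211* (-0.23) were slightly lower and *CYTL1* (0.25) and *GLT8D2* (0.06) slightly higher. For *VIT* and *THSD4* the Poisson intervals of the DZC libraries did not overlap, and for the other 8 genes they did.

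Between the SZC libraries the genes leaned one way. Of the 9 genes with counts in every library, 8 were lower in SZC replicate 2 than in replicate 1, as were 52.9% of the 9785 genes that had counts in all libraries and a mean of at least 100. The median log2 ratio of replicate 2 to replicate 1 was -0.44 over the 9 genes and -0.02 over the 9785. *CYTL1* had the lowest ratio, -1.28, followed by *VIT* (-0.91), *MSMP* (-0.73), *FGL2* (-0.51) and *CPZ* (-0.44). *GLT8D2* (-0.33), *CLCA2* (-0.20) and *KIAA1211* (-0.15) differed less, and *THSD4* (0.10) was the exception. *GSDMC* was also lower in replicate 2 (-0.37), on 38 and 31 counts. No label separates the SZC libraries beyond their number, so each library is 1 observation and this lean has no test.

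**Figure D3:**
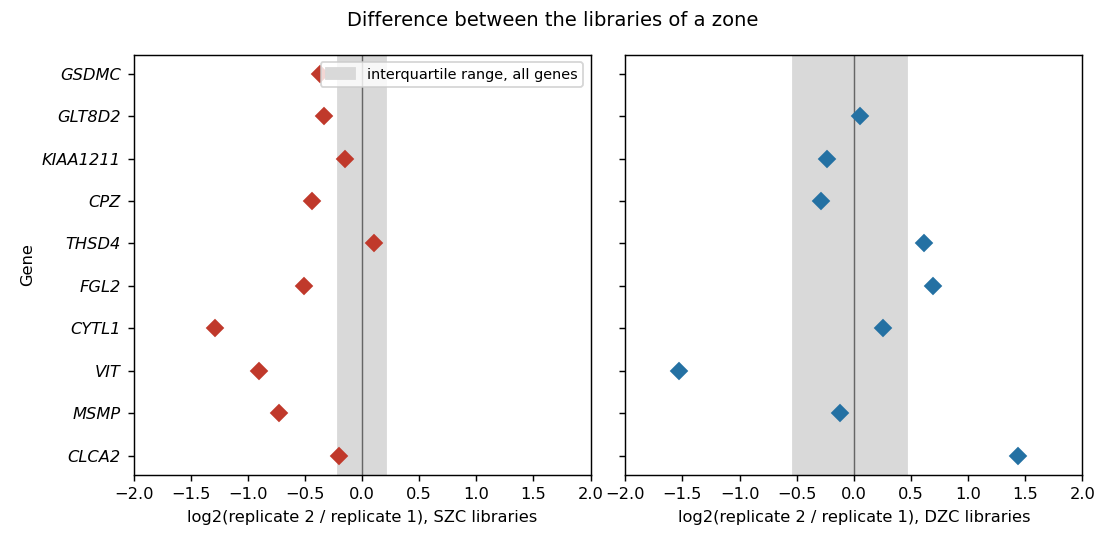
log2 ratio of replicate 2 to replicate 1 for each gene in the SZC libraries (left) and the DZC libraries (right), with the grey band marking the interquartile range of 9785 genes. In SZCs the points lie left of 0 except for *THSD4* (0.10), and in DZCs they scatter on both sides, from -1.53 for *VIT* to 1.43 for *CLCA2*.

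To name genes with a like pattern, the log2(CPM + 1) values of each gene were centred over the 4 libraries and set beside the mean profile of the 10 genes. Among 9780 other genes with a mean of at least 100 counts, *CREB5* was the nearest by Euclidean distance (0.33 on the log2 scale), with 1035 and 753 counts in SZCs and 20 and 44 in DZCs. It was followed by *PI15* (0.47), a peptidase inhibitor gene, *PGF* (0.54), which encodes placental growth factor, *ANG* (0.58), which encodes the ribonuclease angiogenin, and *SCARA5* (0.58), a scavenger receptor gene. *SCARA5* had 292 and 246 counts in SZC replicates 1 and 2, against 0 and 11 in those of the DZCs. Of the 10 genes themselves, *FGL2* (0.38) and *CPZ* (0.45) lay closest to their own mean, and *GSDMC* (2.47) farthest. With 4 libraries the likeness rests mainly on the zone difference that chose the genes.

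The next question was whether families and partners of the 10 genes shared the difference. For this, 92 genes were listed by family or known role, of which 87 were counted under those names and 72 were tested. The exact test of edgeR, with Benjamini–Hochberg adjustment over all tested genes (FDR, from this test throughout unless another is named) and a threshold of 0.05, called 7 of the 72 higher in SZCs (9.72%), against 2.23% of all tested genes, and 1 lower in SZCs (1.39%), against 0.700%. The other 64 did not pass. The lists were drawn up with earlier results of these data known, so nothing is read from these shares. The median log2FC was 0.14 over the 72 genes and -0.04 over all. The calls lay in 4 of 10 lists.

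The family of *THSD4* had the most calls, with 3 of 8 genes higher in SZCs. *PAPLN*, for the matrix protein papilin, had 463 and 269 counts in SZC replicates 1 and 2, against 13 and 15 in those of the DZCs. Its log2FC was 4.46 (SE 0.59, FDR 3.26e-09). *FBN2*, which encodes the fibrillin of developing tissue, had 2205 and 1827 counts in SZCs but 36 and 423 in DZCs, with a log2FC of 3.07 (SE 0.87, FDR 0.0463). It was 2.24 without DZC replicate 1 and 5.33 without DZC replicate 2. *ADAMTSL3*, another ADAMTS-like gene, was 2.72-fold higher (log2FC 1.45, SE 0.38, FDR 0.0099). *FBN1*, for the main fibrillin of microfibrils, had a log2FC of 0.31 (SE 0.79) and did not pass.

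Among the 10 tested relatives of *VIT*, which share its von Willebrand A or LCCL domains, *COCH* was higher in SZCs and *MATN3* was lower. *COCH* encodes cochlin, which carries the same domains as vitrin. It had 51 and 62 counts in SZC replicates 1 and 2, against 0 and 6 in those of the DZCs, with a log2FC of 4.04 (SE 1.00, FDR 0.00651), 3.19 without DZC replicate 1, and beyond the measurable range without DZC replicate 2, when no DZC count is left. *MATN3*, for the cartilage matrix protein matrilin-3, had 1067 and 1798 counts in SZC replicates 1 and 2, against 2991 and 7441 in those of the DZCs, with a log2FC of -2.04 (SE 0.46, FDR 0.00212). *CRISPLD1*, which has LCCL domains, was at 1435 and 474 CPM in SZCs and 313 and 97.8 CPM in DZCs. Its log2FC was 2.22 (SE 0.74, FDR 0.123), 1.20 without SZC replicate 1 and 3.29 without DZC replicate 1. It passed in 6 of 11 alternatives, among them the replicate block (FDR 0.0219) and DESeq2 (FDR 0.0287), with an FDR from 0.000138 to 1.0 over all of them.

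In the fibrinogen-domain list of *FGL2*, 2 of 7 tested genes passed, both of them angiopoietin-like genes. *ANGPTL1* had 1862 and 1514 counts in SZC replicates 1 and 2, against 364 and 175 in those of the DZCs (log2FC 2.30, SE 0.56, FDR 0.00559). *ANGPTL4*, whose protein inhibits lipoprotein lipase, had 288 and 233 counts in SZC replicates 1 and 2, against 27 and 71 in those of the DZCs (log2FC 2.24, SE 0.56, FDR 0.00704). The angiopoietin-like gene *ANGPTL2* went the other way without passing (log2FC -1.43, SE 0.52, FDR 0.163). The closest relative *FGL1* had 93 and 83 counts in SZCs and 58 and 50 in DZCs, a log2FC of 0.42 (SE 0.60). *ANGPTL1* became 3.26 without DZC replicate 1. *MFAP4*, for a microfibril-associated protein, had a log2FC of -1.29 (SE 0.68) and did not pass, with 0.06 without DZC replicate 1 and -1.96 without DZC replicate 2.

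Among the gasdermins and their activators, *GSDMD*, the gasdermin cleaved by inflammatory caspases, was the gene called of 8 tested. It had 251 and 179 counts in SZC replicates 1 and 2, against 22 and 61 in those of the DZCs, with a log2FC of 2.21 (SE 0.60, FDR 0.0191). *GSDMB* had 37 and 18 counts in SZCs and 3 and 11 in DZCs, and *GSDME* 101 and 87 in SZCs and 26 and 52 in DZCs. Their log2FCs were 1.80 (SE 0.88) and 1.07 (SE 0.60), and neither passed. *GSDMA* had at most 10 counts in any library. *GSDMD* passed in 6 of 11 alternatives, with an FDR from 2.46e-05 to 1.0. The call was lost with the quasi-likelihood test (FDR 0.273), the replicate block (0.0592), library totals alone (0.0726), without SZC replicate 1 (1.0) and without SZC replicate 2 (0.362), and its log2FC was 2.81 without DZC replicate 2. *NINJ1*, whose protein ruptures the plasma membrane, had a log2FC of -0.50 (SE 0.72), which turned to 1.05 without DZC replicate 1.

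**Figure D4:**
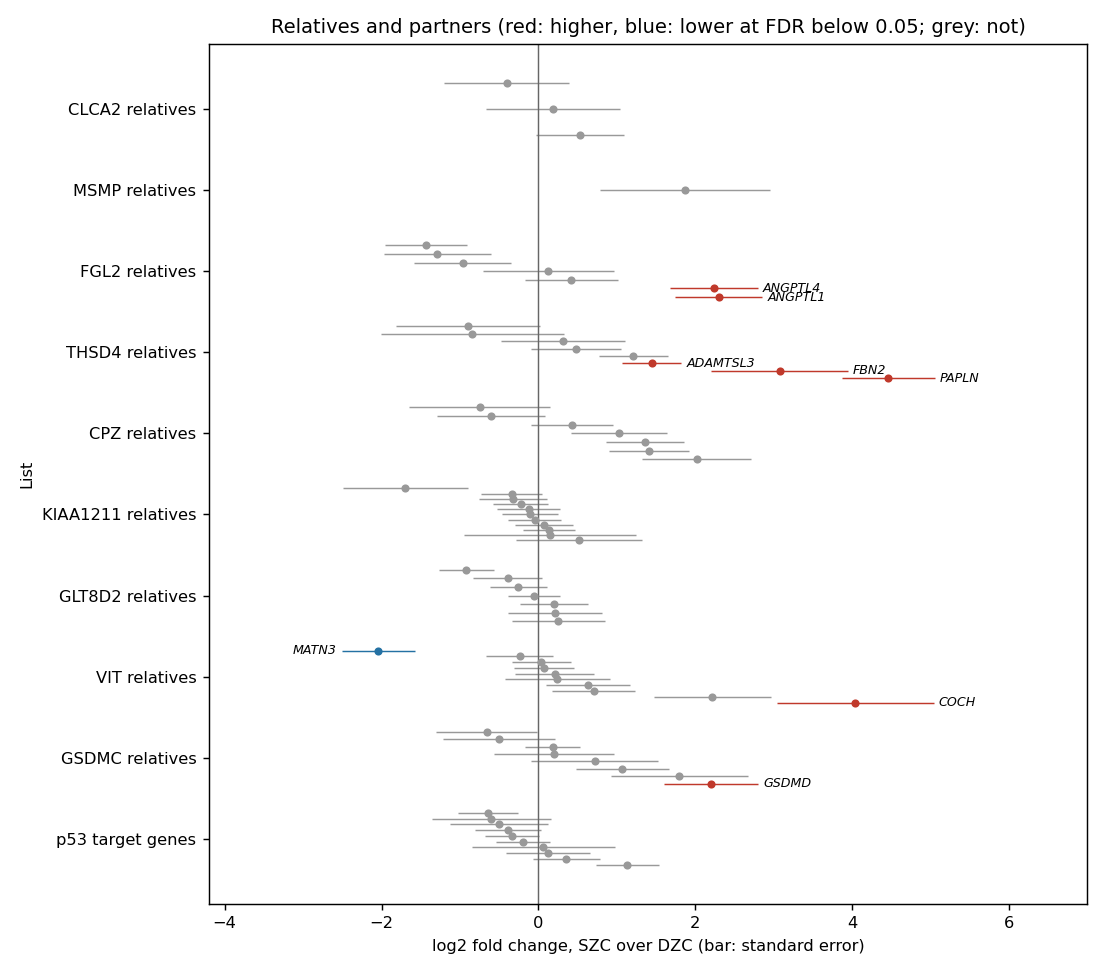
log2FC of SZCs over DZCs (bars: standard error) for the 72 tested relatives and partners, by list, in red where higher and blue where lower in SZCs at an FDR below 0.05 in edgeR's exact test. The 8 named genes passed, and of the other 64, 35 lie within 0.5 of 0 and 13 beyond 1 in either direction.

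In the other 6 lists, edgeR's exact test called 0 of 39 genes, with 6 at an unadjusted p below 0.05. DESeq2 called 0 and the quasi-likelihood test of edgeR 0 of the same genes, while the replicate block called 1 higher and scaling by library totals alone 1 higher. With either DZC library left out, 42 genes of these lists were tested. The calls were 3 higher (7.14%) and 1 lower (2.38%) without DZC replicate 1, against 3.96% and 2.71% of all genes, and 7 higher (16.7%) and 2 lower (4.76%) without DZC replicate 2, against 12.2% and 8.51% of all genes. These lists held the actin capping regulators around *KIAA1211*, where all 11 tested genes failed to pass, *CAPZA1* among them with a log2FC of -0.23 (SE 0.35). In the glycosyltransferase family of *GLT8D2*, its sister gene *GLT8D1* had 2171 and 2265 counts in SZC replicates 1 and 2, against 2199 and 2190 in those of the DZCs, a log2FC of -0.26 (SE 0.36). The carboxypeptidases related to *CPZ* had a median log2FC of 1.03 over 7 tested genes with 0 passing in edgeR's exact test and 3 at an unadjusted p below 0.05. *AEBP1* among them had a log2FC of 1.41 (SE 0.51, FDR 0.152).

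The family members of *CLCA2* were barely counted. *CLCA1* had 11 and 5 counts in SZCs and 0 and 4 in DZCs, *CLCA3* 3 and 7 in SZCs and 2 and 4 in DZCs, and *CLCA4* 3 and 3 in SZCs and 0 and 1 in DZCs, so all 3 were left out of the test. *ANO6* had a log2FC of 0.53 (SE 0.57). *CLCA2* is known elsewhere as a target of p53. None of the 10 tested p53 target genes passed in edgeR's exact test, with 1 at an unadjusted p below 0.05, and *CDKN1A* had a log2FC of -0.39 (SE 0.42). In the short list around *MSMP*, its relative *MSMB* had 0 counts in every library, and *CCL2*, for another CCR2 ligand, had 87 and 163 counts in SZCs and 3 and 62 in DZCs. *CCL2* did not pass (log2FC 1.87, SE 1.08, FDR 0.739).

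The number of relatives called changed with each library left out. With a library left out, which leaves 1 zone with a single library assumed to vary like the other, the number higher in SZCs was 1 without SZC replicate 1, 4 without SZC replicate 2, 14 without DZC replicate 1 and 20 without DZC replicate 2. The first of these fits tested 72 relatives and the other 3 tested 75, so the shares were 1.39%, 5.33%, 18.7% and 26.7%. Over all genes the share higher in SZCs moved too, to 0.391%, 0.928%, 3.96% and 12.2% in the same fits. The quasi-likelihood test called 0 of the 72, with 16 at an unadjusted p below 0.05, and DESeq2 called 8 higher and 1 lower. Of 11 alternatives, *PAPLN* passed in 10, *ANGPTL1* in 9, *COCH*, *FBN2* and *ANGPTL4* in 8 each, and *ADAMTSL3* and *MATN3* in 7 each. Both of the last were lost with library totals alone and without either SZC library. Without DZC replicate 2, *ANO6*, *CCL2*, *MFAP4*, *FBN1*, *AEBP1*, *CRISPLD1* and *NINJ1* passed as well, with log2FC of 1.57, 4.85, -1.96, 2.02, 2.06, 1.62 and -1.22. Without DZC replicate 1, *CCL2* was at 0.99 and did not pass, and *ANO6* (-0.06), *MFAP4* (0.06) and *FBN1* (-0.44) changed sign without passing.

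Position was the other feature that the choice of genes did not use. For 9 of the 10 genes, found in the RefSeq gene table of assembly ARS-UCD2.0, the nearest 2 protein-coding genes on each side were read off, 36 in all, of which 33 were counted and 26 tested. The counts were made on another build, so only the order of genes was taken from the table. The exact test of edgeR called 1 of the 26 higher in SZCs (3.85%), against 2.23% of all tested genes, and 0 lower, with 1 lower at an unadjusted p below 0.05. DESeq2 and the quasi-likelihood test, with and without the replicate block, called 0. The median log2FC of the 26 neighbours was -0.02.

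The called neighbour was *STK32B*, a serine/threonine kinase gene next to *CYTL1*, with 51 and 32 counts in SZCs against 2 and 4 in DZCs. Its log2FC was 3.53 (SE 0.90, FDR 0.00725). With the replicate block the FDR was 0.0543, so the call was lost. In DESeq2 its FDR was 0.0518, and over 11 alternatives it ran from 0.00569 to 0.880, with 6 passing. *EVC2*, the gene beyond *STK32B*, was higher in SZCs without passing (log2FC 0.99, SE 0.43). On the other side of *CYTL1*, the homeobox gene *MSX1* went the other way without passing (log2FC -0.92, SE 0.60). Genes on both sides of *VIT*, *KIAA1211* and *GLT8D2* lay near 0. Those around *VIT* had log2FCs of 0.25 (*CRIM1*), -0.17 (*FEZ2*), 0.16 (*STRN*) and 0.13 (*HEATR5B*), those around *GLT8D2* lay between -0.23 and 0.17, and those around *KIAA1211* between -0.30 and 0.09. Near *CPZ*, *ADRA2C* was lower in SZCs without passing (log2FC -1.37, SE 0.51). Tested neighbours of *GSDMC* ran from -0.50 to 0.60, and those of *FGL2* were at -0.58 and 0.12. *CLCA2* has *CLCA1* and *CLCA4* as neighbours on one side, with the low counts given above. The number of called neighbours was 0 without SZC replicate 1, 0 without SZC replicate 2 and 6 without DZC replicate 2, with 26 neighbours tested in the first of these fits and 28 in the others. The 6 are 21.4% of the neighbours, against 20.7% of all genes called in that fit.

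**Figure D5:**
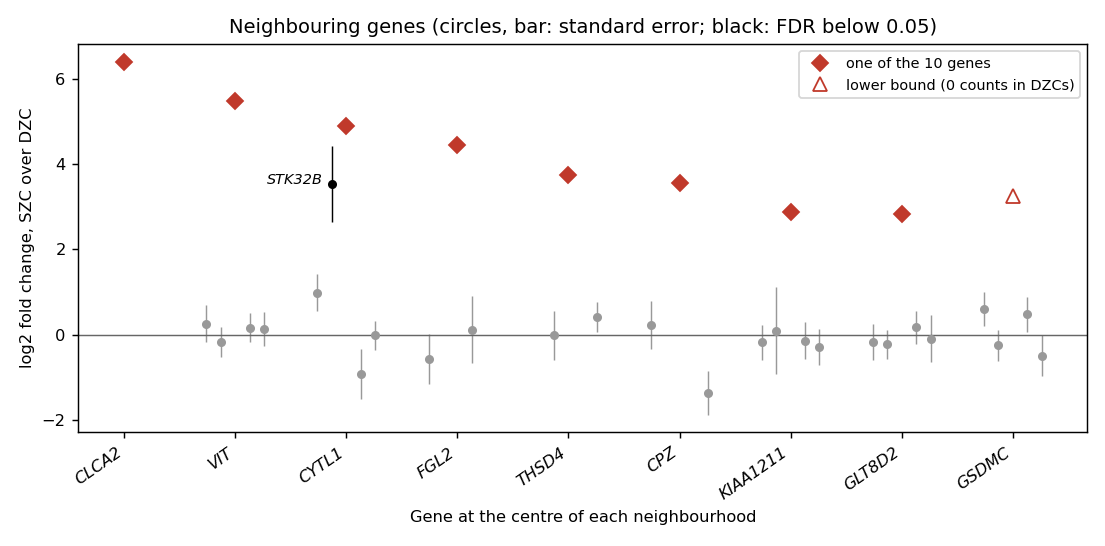
log2FC of SZCs over DZCs for 9 of the 10 genes (red diamonds, and an open triangle at the lower bound of *GSDMC*) and for their tested neighbours in RefSeq order (circles, bars: standard error). *STK32B* beside *CYTL1* is the neighbour that passed the test (black), the other 25 are grey, and no neighbour of *CLCA2* was tested.

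Markers of other cell types were compared because several of the 10 genes are known from other tissues. The 8 epithelial markers, of interest for *CLCA2* and *GSDMC*, summed to 90.5 and 29.4 CPM in SZCs and 19.4 and 12.1 CPM in DZCs, with *DSP* (desmoplakin) the largest term in SZC replicate 1, at 89.1 CPM. *DSP* did not pass (log2FC 2.28, SE 0.76, FDR 0.116), while of the 4 epithelial markers tested DESeq2 called 1 and the replicate block 1. Of the other 7 markers, *EPCAM*, *KRT5*, *KRT14*, *TP63* and *CDH1* had at most 18 counts in any library. *KRT8* had 14 and 34 counts in SZCs and 9 and 71 in DZCs, and *KRT18* 8 and 37 in SZCs and 12 and 23 in DZCs. The 8 fibroblast or synovial markers summed to 17033 and 25242 CPM in SZCs and 4419 and 14107 CPM in DZCs, and 0 of 8 passed edgeR's exact test or DESeq2. Of the 3 at an unadjusted p below 0.05, *COL1A2* (log2FC 1.77) and *COL3A1* (1.44) were higher in SZCs and *PDPN* (-0.98) was lower. The sum was lowest in DZC replicate 1, where *PDPN* was at its highest. The 7 endothelial markers summed to between 3.85 and 12.3 CPM and the 7 blood and immune markers to between 0.933 and 11.4 CPM, with *HBB* at 0 in every library. The 5 mural markers summed to 2546 and 2022 CPM in SZCs and 2364 and 1693 CPM in DZCs. Most of this was *CSPG4*, which did not pass (log2FC 0.16, SE 0.41). *RGS5*, *MYH11* and *ABCC9* had at most 106 counts in any library and did not pass. Of the 5, *KCNJ8* was called higher in SZCs (log2FC 2.84, SE 0.77, FDR 0.0256), against 2.23% of all tested genes. DESeq2 and the replicate block called 1 each, and the quasi-likelihood test 0. The part of such cells in the levels of the 10 genes was not tested.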

How the data were processed

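RNA-Seq of SZCs and DZCs (2 libraries per zone, cells cultured for 3 days) was used. The ATAC-Seq samples were not analysed here. Libraries were made by the authors with a SMART-Seq v4 kit and read as 75 bp single ends. Per the methods, the authors aligned reads with STAR 2.5.2b to Ensembl build UMD 3.1 and counted them per gene without strand, so a gene and one antisense to it share reads. The counts were deposited without normalization. A further deposited table holds the authors' own log2 fold changes and adjusted p-values (FDR), of which no value was used, and blank gene names were filled from it.

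Counts were tested with edgeR 4.0.16 in R 4.3.3 by the exact test named in the study's methods, with TMM scaling, the default filter, and an FDR threshold of 0.05 over 12857 genes. Library totals lay between 19918970 and 21890549 counts, and replicates differed by more than sampling noise (chi-square per degree of freedom 50.5 for SZCs and 245 for DZCs). Standard errors follow from the gene-wise dispersion. The scripts were tested on simulated data. Alternatives were the quasi-likelihood test with and without a replicate block, DESeq2 1.42.0, other filters and scalings, and leaving out each library.

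The 10 genes and all lists were chosen with earlier results of these data known. Genes named are the 10, relatives and neighbours that passed, the gene of each list with the highest mean CPM (not scaled by length), the 5 nearest in profile, 3 genes on each side of the 7-fold limit and *PRG4*. *CREB5*, *COL2A1*, the marker genes, *CCR2*, *FCGR2B*, *MSMB*, *FGL1*, *ANGPTL2*, the remaining CLCA and gasdermin genes and the neighbours that did not pass were added after their values were seen.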

Additional observations from a re-analysis of the deposited data

How the results depend on the processing

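Without *GSDMC*, which had no DZC counts, the other 9 genes stayed higher in SZCs under the 11 alternatives, with a smallest log2 fold change of 2.64, and 88 of 99 values moved by less than the spread between replicates. The median log2 fold change of the 10 (4.67, with *GSDMC* at its fitted value) ran from 4.14 to 5.04 when single libraries were dropped and was 4.93 with library totals alone. The quasi-likelihood test of edgeR called 0 genes higher and 0 lower in SZCs, with 1126 at an unadjusted p below 0.05, and so 0 relatives higher, 0 lower and 0 neighbours, with 16 relatives and 3 neighbours at an unadjusted p below 0.05. With the replicate block it called 262 genes higher and 85 lower (277 of the 347 shared with the 377 called), 8 relatives higher and 2 lower, 0 neighbours, with 3 of them at an unadjusted p below 0.05. Across genes, deviations from the zone mean correlated at 0.42 between SZC and DZC libraries of the same number, but the sources do not say that the number marks a shared joint. DESeq2 called 0 neighbours, with 3 at an unadjusted p below 0.05. With library totals alone, 44 genes and 0 relatives were called lower (1 at an unadjusted p below 0.05), 86.7% of calls were toward SZCs, against 76.1% with TMM, and the median of all genes shifted from -0.04 to 0.26. The cause was not tested.

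With each library left out, genes called higher ranged from 52 to 1607 and lower from 6 to 1118, relatives higher from 1 to 20 and lower from 0 to 6, and neighbours from 0 to 6. The most calls came without DZC replicate 2. In this fit, and also in the one without DZC replicate 1, the spread was taken from the SZC libraries alone. The reason for the larger number was not tested. *NINJ1* ran from -1.22 without DZC replicate 2 to 1.05, a reversal, without DZC replicate 1. Depth limits *GSDMC*, *COCH* and *STK32B*, which had at most 6 counts in a DZC library.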
